A study of Mus musculus with 12 samples.

Results

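The complement system was followed through 31 mouse genes in liver after ligation of the bile duct and after loss of the plasma protease FSAP. The genes were listed by symbol and cover recognition molecules, proteases, components, soluble and membrane-bound regulators and receptors. All 31 were among the 31870 gene names on the array, and Hc is the mouse symbol for complement C5. By where liver complement is known to be made, 18 were counted as hepatocyte-made, 8 as macrophage-made and 5 as of other or broad origin. Expression was measured on 12 single-colour Agilent arrays, 1 per mouse, in 4 groups of 3. The groups were FSAP-/- mice 2 weeks after bile duct ligation (BDL), FSAP-/- mice after a sham operation without ligation, and FSAP+/+ (WT) littermates after BDL and after the sham operation. All mice came from crosses of heterozygotes, had the BalbC background of a backcross taken to generation 3, and were 20 to 30 weeks old. FSAP (factor VII activating protease, encoded by Habp2) is a circulating protease made mainly in the liver. The FSAP-/- mice are called FSAP-deficient here, and the labels name no restriction of the deletion to a tissue.

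Complement is a cascade of plasma proteins that marks microbes and damaged cells. It starts when C1q binds immune complexes or dying cells (classical pathway), when mannose-binding lectins and ficolins bind sugars (lectin pathway), or by spontaneous turnover of C3 (alternative pathway), and it ends with a pore built from C5b, C6, C7, C8 and C9. Hepatocytes secrete most of the circulating proteins, while C1q, properdin and the receptors of the small cleavage fragments come largely from macrophages, among them the Kupffer cells that line the liver sinusoids. In ligated livers bile is retained, ducts and scar tissue grow, and macrophages accumulate.

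The probes behind 3 of the genes are shown because the results turn on them: the C1q chains A and B, parts of the recognition molecule that rose in both genotypes, and C6, which had the widest spread between mice. Each is the 60-base probe sequence of the array, with its position in mm9 as the files give it.
C1qa, chr4:136452409-136452468, minus strand: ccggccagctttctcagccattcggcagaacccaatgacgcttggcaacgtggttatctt
C1qb, chr4:136436578-136436637, minus strand: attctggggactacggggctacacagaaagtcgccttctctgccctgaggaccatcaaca
C6, chr15:4748363-4748422, plus strand: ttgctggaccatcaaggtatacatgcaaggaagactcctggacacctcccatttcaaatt

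RefSeq promoters (build GRCm38.p6, 250 bases before to 50 after the gene start) were given for 24 of the 31 genes. They were searched on both strands for 5 motifs from general knowledge of liver and macrophage transcription, picked with the expression changes known. The core letters bound by PU.1, a factor of the myeloid lineage, GAGGAA, occurred in 5 of 7 promoters of macrophage-made genes (C1qb, C1qc, Cfp, Fcna and Vsig4), in 0 of 12 of hepatocyte-made genes and in 28.3% of all 27025 promoters. The letters GTTAAT of the hepatocyte factor HNF1 occurred in 1 of 7 macrophage-made (Cfp), in 5 of 12 hepatocyte-made (C4bp, Hc, C8a, C8b and Vtn) and in 7.20% of all promoters. Among the 5 promoters of genes of other or broad origin, GAGGAA occurred in 1 (Cd59a) and GTTAAT in 2 (Cd55 and C7). The HNF1 letters were thus not particular to hepatocyte-made genes. The remaining patterns were closer to the share in all promoters or had few matches. TTNNGNAA, for C/EBP factors, was in 4 of 7 macrophage-made, 6 of 12 hepatocyte-made and 40.7% of all promoters. TTCNNNGAA, for STAT factors, was in 0 of 7, 3 of 12 and 8.47%, and the NF-kB motif was in 1 of 7, 0 of 12 and 1.62%. The last was searched as GGG and TTTCC with 2 free letters between them. Matches that overlapped another motif were kept, and a match is a description of letters, not a site. Below are 5 promoters chosen for their matches, in capitals: GAGGAA or its complement TTCCTC in the first 3, GTTAAT or its complement ATTAAC in the last 2.
C1qb, chr4:136886151-136886450, minus strand: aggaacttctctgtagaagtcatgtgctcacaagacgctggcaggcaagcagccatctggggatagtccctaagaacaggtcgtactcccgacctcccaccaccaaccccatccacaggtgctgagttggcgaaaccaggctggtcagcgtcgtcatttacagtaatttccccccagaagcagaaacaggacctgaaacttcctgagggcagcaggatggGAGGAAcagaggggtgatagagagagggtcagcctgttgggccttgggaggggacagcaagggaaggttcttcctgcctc
C1qc, chr4:136892865-136893164, minus strand: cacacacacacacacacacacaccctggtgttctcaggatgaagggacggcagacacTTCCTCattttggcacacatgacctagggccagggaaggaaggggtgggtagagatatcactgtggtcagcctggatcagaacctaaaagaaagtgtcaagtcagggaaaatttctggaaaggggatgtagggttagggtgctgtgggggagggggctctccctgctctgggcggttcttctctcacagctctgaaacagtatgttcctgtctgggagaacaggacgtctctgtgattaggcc
Vsig4, chrX:96293389-96293688, minus strand: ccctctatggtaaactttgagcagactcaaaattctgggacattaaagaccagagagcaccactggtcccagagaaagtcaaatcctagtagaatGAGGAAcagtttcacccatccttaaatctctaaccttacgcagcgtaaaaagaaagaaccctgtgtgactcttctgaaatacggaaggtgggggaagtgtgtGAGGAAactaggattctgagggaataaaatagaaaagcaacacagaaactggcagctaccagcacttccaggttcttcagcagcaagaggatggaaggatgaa
C4bp, chr1:130661569-130661868, minus strand: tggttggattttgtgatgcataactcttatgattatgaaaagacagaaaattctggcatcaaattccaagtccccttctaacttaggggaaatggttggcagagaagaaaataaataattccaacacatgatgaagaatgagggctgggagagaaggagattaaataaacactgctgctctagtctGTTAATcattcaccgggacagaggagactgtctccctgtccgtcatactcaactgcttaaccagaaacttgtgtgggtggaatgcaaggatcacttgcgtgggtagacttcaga
C8b, chr4:104766067-104766366, plus strand: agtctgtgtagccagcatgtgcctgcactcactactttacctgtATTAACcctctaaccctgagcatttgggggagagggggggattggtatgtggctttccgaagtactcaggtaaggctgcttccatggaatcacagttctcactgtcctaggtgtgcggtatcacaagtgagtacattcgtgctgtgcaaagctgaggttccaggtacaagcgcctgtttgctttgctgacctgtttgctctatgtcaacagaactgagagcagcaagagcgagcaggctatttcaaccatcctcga
The match lay 30 bases before the start in C1qb (position -30), at -193 in C1qc, at -155 and -53 in Vsig4, at -64 in C4bp and at -206 in C8b. C4bp rose after BDL in WT livers, and C8b fell in FSAP-deficient livers. These are changes in different genotypes, and whether the HNF1 letters bear on either was not tested.

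Levels are given as log2 of the processed signal relative to the 75th percentile of the same array, so that a difference of 1 is a doubling, and each gene is represented by its brightest probe. Levels of different probes cannot be set against each other. A change is BDL minus sham, and it was called when limma's Benjamini-Hochberg adjusted p, taken over the 19528 genes measured on at least 3 arrays, was under 0.05. Of the 31 genes 28 entered the test: Cfd (factor D) and Cd46 were not well above background on any array, and C5ar1, the C5a receptor, was on 1. Between 54.5% and 62.3% of spots on an array were well above background, and arrays of a group correlated at 0.971 to 0.993. Habp2 itself stood at 4.97 to 5.50 on the 6 WT arrays. It was not well above background on 5 of the 6 FSAP-deficient arrays and was at -3.45 on FSAP-deficient sham replicate 1. That array lay alone on its slide, slide 4, and its file gives values to 3 digits. Y-linked genes were well above background on it and on FSAP-deficient BDL replicates 1 and 2, and on 0 of the WT arrays, and the labels do not give the sex of the mice. Slides held the groups unevenly: slide 1 carried WT BDL replicate 1 with the 3 WT sham arrays, and slide 3 carried the 3 FSAP-deficient BDL arrays with FSAP-deficient sham replicate 3. Values within these slides, which equal those of a model with slide as a block, are given beside the changes as the change within slide 1 (WT) or slide 3 (FSAP-deficient). The value within slide 1 rests on a single WT BDL array and that within slide 3 on a single FSAP-deficient sham array.

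After BDL most macrophage-made genes rose in both genotypes, and the hepatocyte-made genes were spread to both sides of 0. In FSAP-deficient livers 13 genes were called, 6 higher and 7 lower, against 39.1% of all genes tested, 16.2% higher and 22.8% lower. In WT livers 13 were called as well, 9 higher and 4 lower, against 32.9% of all genes tested, 15.2% higher and 17.7% lower. With quantile normalization the split was 9 higher and 6 lower in FSAP-deficient livers, and 12 higher and 2 lower in WT livers. The share of tested complement genes called, 46.4% in each genotype, was thus not far above that of all genes, and the 31 genes together had median changes of -0.05 in FSAP-deficient and 0.12 in WT livers, beside -0.16 and -0.03 over all genes tested. Scaling each array to its median instead moved the median over all genes to -0.36 and -0.19.

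The macrophage-made group rose by 6 genes and fell by 0 in each genotype, with Fcna tested but not called and C5ar1 not tested. Over all 8 its median change was 1.89 in FSAP-deficient and 1.03 in WT livers. Of the 18 hepatocyte-made genes, 0 rose and 7 fell in FSAP-deficient livers (median -0.50), and 2 rose and 3 fell in WT livers (median -0.08). The sign of the hepatocyte-made median depended on the normalization: with quantile normalization it was 0.03 in FSAP-deficient and 0.22 in WT livers, and within slide 1 the WT median was 0.41. Of the 5 genes of other or broad origin, 0 were called in FSAP-deficient livers, and in WT livers C7 rose and Cd59a fell.

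**Figure D1:**
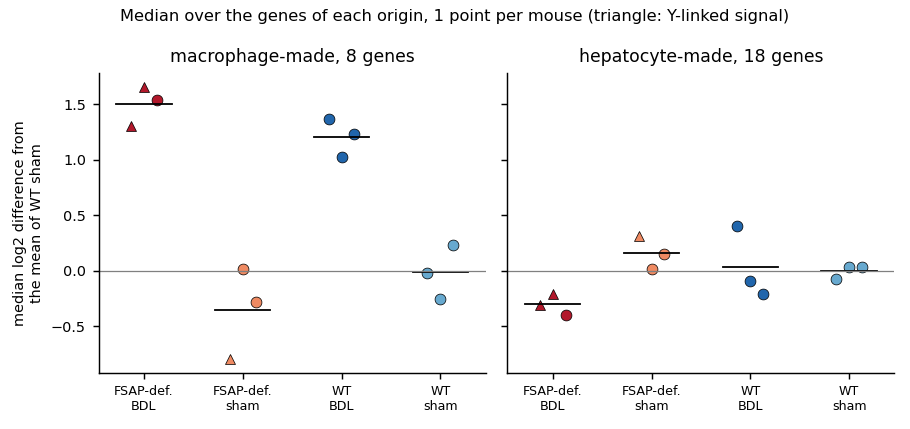
Median log2 difference from the mean of the WT sham arrays over the 8 macrophage-made genes (left) and the 18 hepatocyte-made genes (right), 1 point per mouse, with the group mean as a line and triangles for arrays with Y-linked signal. Macrophage-made medians lay between 1.30 and 1.66 in FSAP-deficient BDL livers and between 1.03 and 1.37 in WT BDL livers, above every sham array, whereas the hepatocyte-made medians of WT BDL livers, -0.21 to 0.41, surrounded those of WT sham livers; the sign of the hepatocyte-made medians changes with quantile normalization.

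Per mouse, the macrophage-made median relative to WT sham was 1.50 ± 0.18 in FSAP-deficient BDL livers, against -0.35 ± 0.41 in FSAP-deficient sham livers, and 1.21 ± 0.17 in WT BDL livers (SD, n = 3). The hepatocyte-made median was -0.30 ± 0.10 in FSAP-deficient BDL livers, against 0.16 ± 0.15 in FSAP-deficient sham livers, and 0.04 ± 0.33 in WT BDL livers. WT BDL replicate 1 stood apart in the last group, with 13 of 18 hepatocyte-made genes above the WT sham mean, where the other WT BDL arrays had 8 and 6.

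Markers of several cell types were counted beside the complement genes. Of 15 macrophage markers, 14 rose and 0 fell in FSAP-deficient livers, and 12 rose and 0 fell in WT livers. Their summed level, in multiples of the array's 75th percentile, was 148 to 178 in FSAP-deficient BDL livers, against 37.6 to 46.3 in FSAP-deficient sham livers. It was 92.2 to 137 in WT BDL livers, against 51.7 to 61.1 in WT sham livers. The defining markers Cd68, Adgre1 and Csf1r changed by 3.06, 1.94 and 1.22 in FSAP-deficient livers and by 1.97, 0.75 and 0.69 in WT livers. Of 11 Kupffer cell markers, a list that holds Vsig4 and Fcna too, 7 rose and 1 fell in FSAP-deficient livers, and 5 rose and 0 fell in WT livers. Their summed level after BDL was 117 to 149 without FSAP, against 58.2 to 82.7 after sham, and 120 to 134 in WT, against 72.9 to 94.8 after sham. The defining Kupffer cell markers did not move alike in WT livers. There the means of Clec4f, Timd4 and Cd5l were 3.90, -1.07 and 5.29 after BDL, against 3.64, -1.22 and 4.12 after sham. In FSAP-deficient livers they were 4.24, -0.52 and 5.63 after BDL, against 3.38, -1.74 and 3.62 after sham. Of 13 hepatocyte markers, 0 rose and 9 fell in FSAP-deficient livers, with summed levels of 2215 to 2999 after BDL against 4208 to 4507 after sham. In WT livers 0 rose and 5 fell, and the sums overlapped, at 2614 to 4112 after BDL against 3921 to 4359 after sham.

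Markers of cells that were not counted as producers were called too. Of 8 neutrophil markers, 4 rose in FSAP-deficient and 3 in WT livers, and 0 fell. Their summed level was 23.1 to 71.9 in FSAP-deficient BDL livers, against 5.69 to 11.1 in FSAP-deficient sham livers. It was 23.6 to 76.5 in WT BDL livers, against 7.03 to 16.6 in WT sham livers. Most of the neutrophil sums after BDL came from S100a8 and S100a9, so these sums largely follow those genes. Not all neutrophil markers moved alike: in WT livers the mean of Camp was -0.28 after BDL and -0.31 after sham. Elane alone had a lower mean after BDL, by 0.31 in FSAP-deficient and 0.22 in WT livers. Of 9 stellate cell markers, 6 rose in FSAP-deficient and 3 in WT livers, and 0 fell. Their sums were 72.4 to 158 in FSAP-deficient BDL livers, against 33.7 to 41.7 in FSAP-deficient sham livers. The WT sums overlapped, at 25.8 to 81.0 after BDL against 39.9 to 44.1 after sham. Of 9 cholangiocyte (bile duct cell) markers, 6 rose and 1 fell in each genotype. Their sums were 11.6 to 43.9 in FSAP-deficient BDL livers, against 1.63 to 2.09 in FSAP-deficient sham livers. They were 13.4 to 16.6 in WT BDL livers, against 1.68 to 2.04 in WT sham livers. Most of the cholangiocyte sums after BDL came from 1 marker, Spp1. Its mean log2 level was 4.30 in FSAP-deficient and 3.26 in WT BDL livers, so these sums largely follow that gene. In whole liver, more cells of a type and more RNA per cell cannot be told apart, and the part of cell numbers in the changes below was not tested.

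The 3 chains of C1q, the recognition molecule of the classical pathway, rose in both genotypes. C1qa stood at 2.99, 3.14 and 2.99 in FSAP-deficient BDL livers, against 0.66, 1.50 and 1.08 in FSAP-deficient sham livers. In WT it stood at 2.82, 2.60 and 2.55 after BDL, against 1.54, 1.15 and 1.56 after sham. All BDL arrays lay above all sham arrays of both genotypes. The change was 1.96 (SE 0.21, limma adjusted p = 7.173e-05, 3.89-fold) in FSAP-deficient and 1.24 (SE 0.21, adjusted p = 0.001245, 2.36-fold) in WT livers, and 1.96 within slide 3 and 1.40 within slide 1.

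C1qb, the B chain, stood at 2.74, 3.22 and 3.23 in FSAP-deficient BDL livers, against 0.31, 1.28 and 0.74 in FSAP-deficient sham livers. The WT values were 2.93, 2.16 and 2.38 after BDL, against 1.00, 0.67 and 1.05 after sham. It gave the steepest rise of the 3 chains, 2.29 (SE 0.28, limma adjusted p = 0.0001492) in FSAP-deficient and 1.58 (SE 0.28, adjusted p = 0.001547) in WT livers, and 2.32 within slide 3 and 2.03 within slide 1. C1qc, the C chain, rose by 2.06 (SE 0.25, adjusted p = 0.000167) in FSAP-deficient and by 0.92 (SE 0.25, adjusted p = 0.01703) in WT livers. The WT call of C1qc ended without WT sham replicate 2 (0.86, adjusted p = 0.0589) or WT BDL replicate 1 (0.68, adjusted p = 0.0548), and the change within slide 1 was 1.40.

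Properdin (Cfp), the plasma protein that stabilises the C3 convertase of the alternative pathway, followed the C1q chains. It stood at 3.45, 3.82 and 3.83 in FSAP-deficient BDL livers, against 1.31, 2.54 and 2.36 in FSAP-deficient sham livers. In WT the values were 3.92, 3.45 and 3.51 after BDL, against 2.53, 2.27 and 2.96 after sham. The groups did not overlap, with changes of 1.63 (SE 0.31, limma adjusted p = 0.002066) in FSAP-deficient and 1.04 (SE 0.31, adjusted p = 0.02485) in WT livers. The WT call ended without WT sham replicate 1 (1.01, adjusted p = 0.0694), WT sham replicate 2 (0.88, adjusted p = 0.0932) or WT BDL replicate 1 (0.89, adjusted p = 0.0766).

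The receptors of complement fragments rose where they could be measured. C3ar1, the receptor of the anaphylatoxin C3a, stood at -2.46, -2.27 and -1.65 in FSAP-deficient BDL livers, against -4.57, -3.83 and -4.56 in FSAP-deficient sham livers. The WT values were -2.89, -2.78 and -2.85 after BDL, against -4.57, -4.46 and -4.48 after sham. Its change, 2.19 (SE 0.24, limma adjusted p = 8.215e-05, 4.57-fold) in FSAP-deficient and 1.66 (SE 0.24, adjusted p = 0.0004883, 3.17-fold) in WT livers, was called under every alternative run, but its size was not stable. With normexp background correction the C3ar1 change was 0.91 in FSAP-deficient and 0.61 in WT livers, and the gene was dim, with 2 of 3 FSAP-deficient sham arrays well above background. Vsig4, the Kupffer cell receptor that takes up particles coated with C3 fragments, stood at 3.66, 3.82 and 4.20 in FSAP-deficient BDL livers, against 1.96, 2.64 and 2.23 in FSAP-deficient sham livers. In WT livers Vsig4 was at 3.52, 3.55 and 4.03 after BDL, against 2.66, 2.33 and 3.07 after sham. It rose by 1.62 (SE 0.25, adjusted p = 0.0006005) and by 1.01 (SE 0.25, adjusted p = 0.009865), and the WT call ended with slide as a block (0.84 within slide 1, adjusted p = 0.141). C5ar1 stood at -5.67 to -4.84 in FSAP-deficient BDL livers, where 1 of 3 arrays was well above background, against -7.59 to -6.65 in FSAP-deficient sham livers, where 0 of 3 were, and no fold is given.

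**Figure D2:**
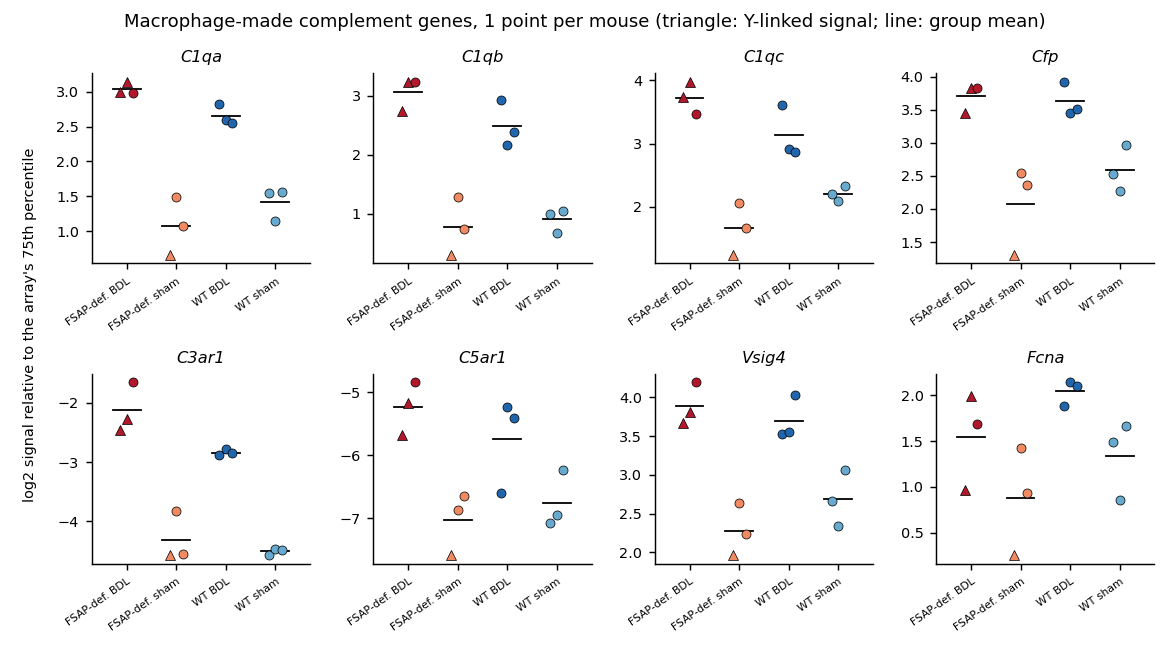
Log2 level relative to the array's 75th percentile of the 8 macrophage-made genes, 1 point per mouse, with the group mean as a line and triangles for arrays with Y-linked signal. In C1qa, C1qb, C1qc, Cfp, C3ar1 and Vsig4 the BDL arrays lay above the sham arrays of their genotype, FSAP-deficient sham replicate 1 was the lowest sham array in C1qa (0.66), C1qb (0.31) and Cfp (1.31), and Fcna overlapped in FSAP-deficient livers.

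The lectin pathway has parts that are hepatocyte-made except for ficolin A. Of its 5 genes, 4 fell in FSAP-deficient and 2 in WT livers, and 0 rose in either. Among all genes tested 22.8% fell in FSAP-deficient and 17.7% in WT livers. Mbl2, mannose-binding lectin C, stood at 6.72, 5.60 and 5.64 in FSAP-deficient BDL livers, against 7.16, 8.0 and 8.29 in FSAP-deficient sham livers. The WT values were 5.32, 5.71 and 5.96 after BDL, against 7.94, 7.96 and 8.0 after sham. No BDL array reached a sham array. It fell by 1.83 (SE 0.34, limma adjusted p = 0.001975, 3.55-fold lower) in FSAP-deficient and by 2.31 (SE 0.34, adjusted p = 0.0006202, 4.95-fold lower) in WT livers, with -2.30 within slide 3 and -2.65 within slide 1.

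Mbl1, mannose-binding lectin A, stood at 2.19, 2.96 and 2.19 in FSAP-deficient BDL livers, against 3.72, 3.52 and 3.50 in FSAP-deficient sham livers. In WT livers it overlapped, at 3.58, 3.42 and 2.74 after BDL, against 3.37, 3.42 and 3.31 after sham. Mbl1 fell by 1.13 in FSAP-deficient livers (SE 0.25, limma adjusted p = 0.004854), a call that ended with slide as a block (-1.05 within slide 3, adjusted p = 0.0789), and its WT difference was -0.12 (95% interval -0.68 to 0.43, adjusted p = 0.7421). The difference between the genotypes in these changes was -1.01 (SE 0.35, adjusted p = 0.2544), which did not pass.

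The lectin-associated serine proteases cleave C4 and C2. Masp1 was at 2.83 to 3.19 in FSAP-deficient BDL livers, against 3.55 to 4.18 in FSAP-deficient sham livers, and fell by 0.93 (SE 0.19, limma adjusted p = 0.003035). Its second, dimmer probe gave -0.26, the change of Masp1 was -0.60 with quantile normalization, and in WT livers Masp1 was at 3.50 to 3.96 after BDL against 3.82 to 3.95 after sham. Masp2 was at 1.96 to 3.21 in FSAP-deficient BDL livers, against 4.0 to 4.15 in FSAP-deficient sham livers, and at 2.61 to 3.49 in WT BDL livers, against 4.0 to 4.07 in WT sham livers. It fell by 1.40 (SE 0.31, adjusted p = 0.004669) and by 0.88 (SE 0.31, adjusted p = 0.04753). The dimmer probes of Masp2 gave -1.20 and -1.06 in FSAP-deficient livers and, in the same order, -0.77 and -1.12 in WT livers. The larger fall in FSAP-deficient livers was thus not seen with every probe. With slide as a block both Masp2 calls ended, at -1.32 (adjusted p = 0.0950) within slide 3 and -0.66 (adjusted p = 0.405) within slide 1. The WT call of Masp2 also ended without WT BDL replicate 3 (-0.60, adjusted p = 0.168), and without any single one of the 3 WT sham arrays, WT BDL replicate 1, the 3 FSAP-deficient sham arrays or FSAP-deficient BDL replicate 1 (-0.99 to -0.87, adjusted p = 0.0560 to 0.109). With quantile normalization it was at -0.66 (adjusted p = 0.112). Fcna, ficolin A, a Kupffer cell lectin, did not pass: it was at 0.97, 2.00 and 1.68 in FSAP-deficient BDL livers, against 0.25, 1.43 and 0.94 in FSAP-deficient sham livers (0.68, adjusted p = 0.139), and its WT difference was 0.71 (adjusted p = 0.1339). Without FSAP-deficient BDL replicate 1 the FSAP-deficient difference of Fcna passed (0.97, adjusted p = 0.0494).

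The early components made by hepatocytes did not pass in either genotype in the model of 4 group means, though C4b and Cfb passed under some alternatives. C3, on which all pathways converge, stood at 9.15, 9.39 and 9.0 in FSAP-deficient BDL livers, against 9.38, 9.54 and 9.69 in FSAP-deficient sham livers. The WT values were 9.99, 9.29 and 8.91 after BDL, against 9.42, 9.63 and 9.47 after sham, and both pairs overlapped. The difference was -0.36 (95% interval -0.89 to 0.17) in FSAP-deficient and -0.11 (-0.64 to 0.42) in WT livers. A second, slightly dimmer probe of C3 gave 0.01 and 0.15, so the sign was not shared by both probes. C4b, the precursor of the C4 part of the convertase, was at -0.31 (-0.74 to 0.12) and 0.12 (-0.31 to 0.55). With quantile normalization C4b was called higher in WT livers (0.47, adjusted p = 0.0251). It has a near-identical copy in the genome, and whether the probe separates them was not tested. C2, the protease of the classical convertase, was at -0.54 (-1.10 to 0.01) and at 0.00 in WT (-0.56 to 0.55). Cfb, factor B, the protease of the alternative convertase, was at -0.05 (adjusted p = 0.8433) in FSAP-deficient and 0.43 (adjusted p = 0.09136) in WT livers. With quantile normalization Cfb was called higher in both, by 0.49 (adjusted p = 0.0239) and 0.76 (adjusted p = 0.00328). Within slide 1, with its single WT BDL array, Cfb was at 0.83.

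**Figure D3:**
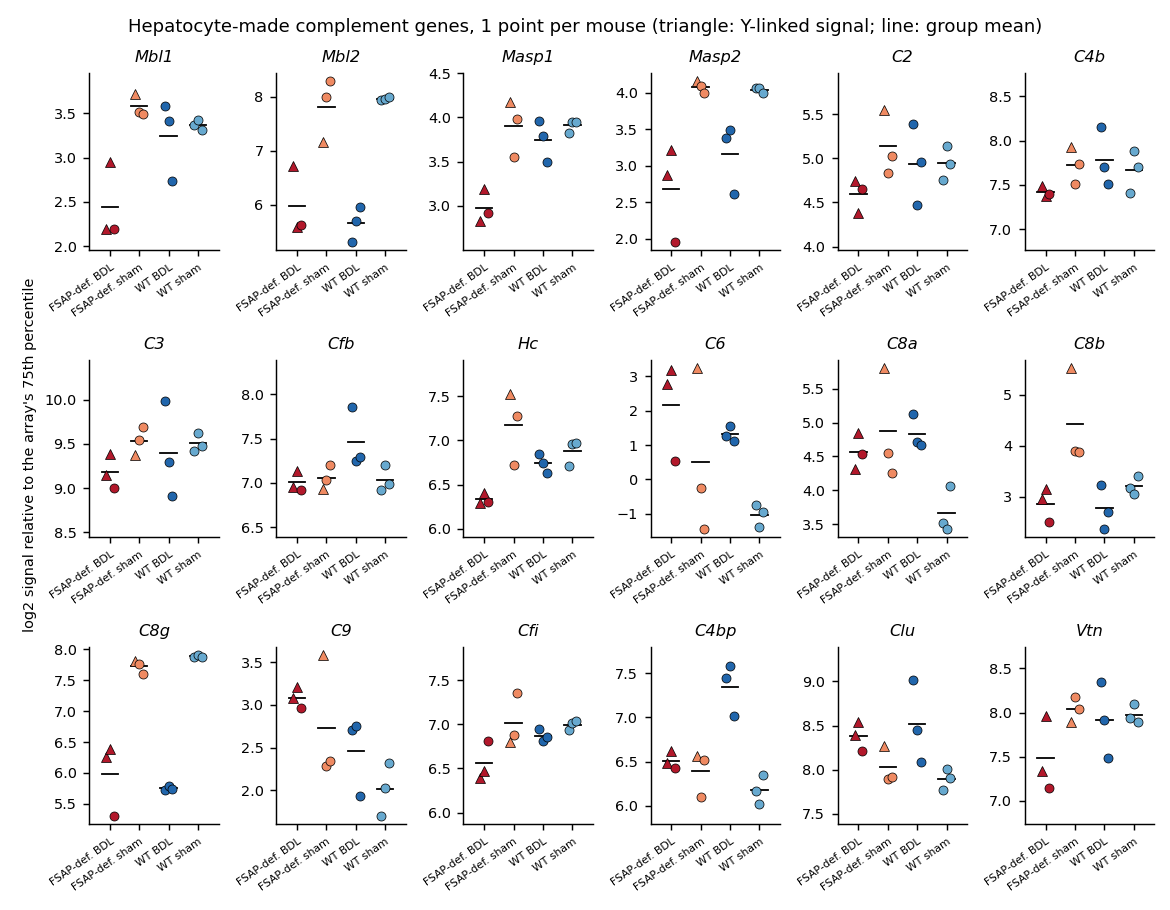
Log2 level relative to the array's 75th percentile of the 18 hepatocyte-made genes, 1 point per mouse, with the group mean as a line and triangles for arrays with Y-linked signal. BDL arrays lay below the sham arrays of their genotype in Mbl2, Masp2 and C8g, WT BDL arrays lay above the others in C4bp, and the 3 triangles were the 3 highest arrays in C6 (2.78 to 3.24).

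The terminal components, which build the pore, split by subunit. Of 7 genes, 0 rose and 3 fell in FSAP-deficient livers, and 2 rose and 1 fell in WT livers. Among all genes tested 39.1% were called in FSAP-deficient and 32.9% in WT livers, so these counts were not far from the background. C8g, the gamma chain of C8, stood at 6.26, 6.39 and 5.31 in FSAP-deficient BDL livers, against 7.82, 7.76 and 7.60 in FSAP-deficient sham livers. In WT livers C8g was at 5.72, 5.79 and 5.74 after BDL, against 7.87, 7.91 and 7.88 after sham. The WT groups were tight and more than 2 log2 units apart. C8g fell by 1.74 (SE 0.24, limma adjusted p = 0.000313, 3.33-fold lower) in FSAP-deficient and by 2.14 (SE 0.24, adjusted p = 0.0001116, 4.40-fold lower) in WT livers. Its second probe gave -1.93 in both, and the changes within slides were -1.61 and -2.17.

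C8b, the beta chain, stood at 2.95, 3.14 and 2.50 in FSAP-deficient BDL livers, against 5.52, 3.90 and 3.88 in FSAP-deficient sham livers, and fell by 1.57 (SE 0.40, limma adjusted p = 0.01083). In WT livers the C8b values overlapped, at 3.23, 2.37 and 2.70 after BDL, against 3.16, 3.04 and 3.40 after sham (-0.44, adjusted p = 0.4452). C8a, the alpha chain, instead rose in WT livers, where it was at 5.13, 4.71 and 4.67 after BDL, against 3.51, 3.43 and 4.06 after sham (1.17, SE 0.36, adjusted p = 0.02814). Its second probe gave 2.53. The WT call of C8a ended with median scaling (1.01, adjusted p = 0.0751), without the filter on dim probes (adjusted p = 0.0502), and without any of WT sham replicates 1 and 2 and WT BDL replicates 1 and 2 (adjusted p = 0.0564 to 0.0924). In FSAP-deficient livers C8a was at 4.31, 4.85 and 4.54 after BDL, against 5.80, 4.55 and 4.25 after sham (-0.30, adjusted p = 0.5373). The second probe of C8a gave 0.43 in FSAP-deficient livers, so the sign there was not shared by both probes. FSAP-deficient sham replicate 1 was the highest FSAP-deficient sham array in both genes. Without it the FSAP-deficient difference was -1.03 in C8b (adjusted p = 0.0148) and 0.16 in C8a (adjusted p = 0.642). Within slide 3 these differences were -1.02 and 0.31. The mean over the probes of C8a gave 1.85 in WT livers.

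Hc, which encodes C5, was at 6.29, 6.41 and 6.30 in FSAP-deficient BDL livers, against 7.53, 6.73 and 7.28 in FSAP-deficient sham livers, and fell by 0.84 (SE 0.19, limma adjusted p = 0.005628). That call ended with quantile normalization (-0.35, adjusted p = 0.0950) and without the arrays with Y-linked signal (-0.70, adjusted p = 0.0690), and in WT livers Hc was at -0.14 (95% interval -0.57 to 0.28). C7 was dim: it was well above background on 3 of 3 WT BDL arrays, at -3.75, -3.85 and -4.31, and on 1 of 3 WT sham arrays, at -5.09, -4.47 and -5.10. It rose by 0.92 in WT livers (SE 0.23, adjusted p = 0.01225), but stood at 0.07 with normexp background correction (adjusted p = 0.833). The C7 call also ended with slide as a block (1.14, adjusted p = 0.0645) and without WT sham replicate 1 (0.82, adjusted p = 0.0505) or 3 (0.81, adjusted p = 0.0503), and in FSAP-deficient livers it was at 0.25 (adjusted p = 0.4255). C9, which polymerises into the ring of the pore, was at 0.35 (95% interval -0.41 to 1.11) in FSAP-deficient and 0.45 (-0.31 to 1.21) in WT livers. Without FSAP-deficient sham replicate 1 the FSAP-deficient difference of C9 passed (0.77, adjusted p = 0.0453).

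C6 had the widest spread between mice. It stood at 2.78, 3.17 and 0.53 in FSAP-deficient BDL livers, against 3.24, -0.24 and -1.43 in FSAP-deficient sham livers. In WT livers it was at 1.27, 1.55 and 1.12 after BDL, against -0.74, -1.40 and -0.94 after sham. The WT groups were far apart, but the FSAP-deficient groups overlapped, and the 3 highest values belonged to the 3 arrays with Y-linked signal. In the model over all 12 arrays C6 did not pass, at 1.64 (SE 1.01, limma adjusted p = 0.226) in FSAP-deficient and 2.34 (SE 1.01, adjusted p = 0.1002, 5.06-fold) in WT livers. The WT difference of 2.34 passed when only the WT arrays were fitted (adjusted p = 0.000682), without the arrays with Y-linked signal (adjusted p = 0.00123) and without FSAP-deficient sham replicate 1 (adjusted p = 0.0138). Without FSAP-deficient sham replicate 1 the FSAP-deficient difference of C6 was 3.00 (adjusted p = 0.00753), and within slide 3, with its single sham array, it was 3.60.

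FSAP-deficient sham replicate 1, the sham array with Y-linked signal, stood above the mean of the other FSAP-deficient sham arrays by 4.08 in C6, 1.63 in C8b, 1.40 in C8a and 1.27 in C9. The FSAP-deficient BDL arrays with Y-linked signal exceeded the other by 2.44 in C6, 0.55 in C8b, 0.04 in C8a and 0.19 in C9. Of the 26 complement genes well above background on all 12 arrays, 7 were higher and 4 lower on the arrays with Y-linked signal in both surgeries. The same count was not made over all genes, so whether 7 and 4 exceed the usual share is not known. The arrays with Y-linked signal were identified from the data and no test was made. For the sham array Y-linked signal and slide 4 cannot be told apart.

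Among soluble regulators, C4bp, the C4b-binding protein that dissociates the classical convertase, rose in WT livers. C4bp was at 6.49, 6.62 and 6.42 in FSAP-deficient BDL livers, against 6.56, 6.09 and 6.51 in FSAP-deficient sham livers. In WT livers it was at 7.45, 7.58 and 7.02 after BDL, against 6.16, 6.01 and 6.35 after sham. All WT BDL arrays lay above every other array. The change was 0.12 (95% interval -0.29 to 0.53, limma adjusted p = 0.6362) in FSAP-deficient and 1.17 (SE 0.19, adjusted p = 0.000916, 2.26-fold) in WT livers, with 0.00 within slide 3 and 1.27 within slide 1. With quantile normalization C4bp was called higher in FSAP-deficient livers too (0.60, adjusted p = 0.0149). The difference between these changes was -1.05 (SE 0.26, adjusted p = 0.1494) and did not pass.

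Clu (clusterin) and Vtn (vitronectin), which keep the terminal complex from inserting into membranes, and Cfi, factor I, which cleaves C3b and C4b, did not pass in the model over all 12 arrays, but each passed under some alternatives. Clu was at 8.40, 8.54 and 8.21 in FSAP-deficient BDL livers, against 8.27, 7.90 and 7.92 in FSAP-deficient sham livers (0.36, limma adjusted p = 0.2313). In WT livers Clu was at 9.01, 8.45 and 8.08 after BDL, against 7.77, 8.01 and 7.90 after sham (0.62, adjusted p = 0.05302), just above the threshold of 0.05. Clu was called higher with quantile normalization in FSAP-deficient (0.94, adjusted p = 0.000134) and WT livers (0.96, adjusted p = 0.000136). In WT livers it was also called without WT BDL replicate 3 (0.84, adjusted p = 0.0156) and without FSAP-deficient sham replicate 1 (adjusted p = 0.0496), and within slide 1 it was at 1.12. Cfi was at -0.45 (95% interval -0.83 to -0.07, adjusted p = 0.05834) in FSAP-deficient and -0.12 (-0.51 to 0.26) in WT livers. It passed in FSAP-deficient livers without sham replicate 1 (-0.56, adjusted p = 0.0381) or BDL replicate 3 (-0.58, adjusted p = 0.0292), with median scaling (-0.66, adjusted p = 0.0106) and with slide as a block (-0.80, adjusted p = 0.0348). Vtn was at -0.56 (-1.10 to -0.02, adjusted p = 0.09589) and -0.06 (-0.60 to 0.49), and passed in FSAP-deficient livers without BDL replicate 2 (-0.80, adjusted p = 0.0234) and with median scaling (-0.76, adjusted p = 0.0276).

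Of the membrane regulators that protect host cells, Cd59a, which blocks the last step of pore assembly, stood at 1.20, 1.67 and 1.58 in FSAP-deficient BDL livers, against 1.67, 2.10 and 2.46 in FSAP-deficient sham livers (-0.59, limma adjusted p = 0.08231). In WT livers Cd59a was at 0.98, 1.69 and 1.69 after BDL, against 2.28, 2.12 and 2.39 after sham, and fell by 0.81 (SE 0.25, adjusted p = 0.02826). The WT call of Cd59a ended with quantile normalization (-0.69, adjusted p = 0.0604) and without any of the 3 WT sham replicates or WT BDL replicate 1 (-0.88 to -0.58, adjusted p = 0.050 to 0.0909), and within slide 1 the change was -1.29. In FSAP-deficient livers Cd59a passed without FSAP-deficient sham replicate 1 (-0.80, adjusted p = 0.0326) and without WT BDL replicate 1 (adjusted p = 0.0483). It also passed there with median scaling (-0.79, adjusted p = 0.0179), with normexp background correction (-0.58, adjusted p = 0.0491) and with the replicate number as a block (adjusted p = 0.0367). Within slide 3, with its single sham array, the change of Cd59a was -0.98. Cd55, decay-accelerating factor, was at 0.25 (95% interval -0.35 to 0.84) in FSAP-deficient and -0.03 (-0.63 to 0.56) in WT livers. Within slide 1, with its single WT BDL array, Cd55 was at -0.77. Cd46 and Cfd were not well above background on any array, and no change is given for them.

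**Figure D4:**
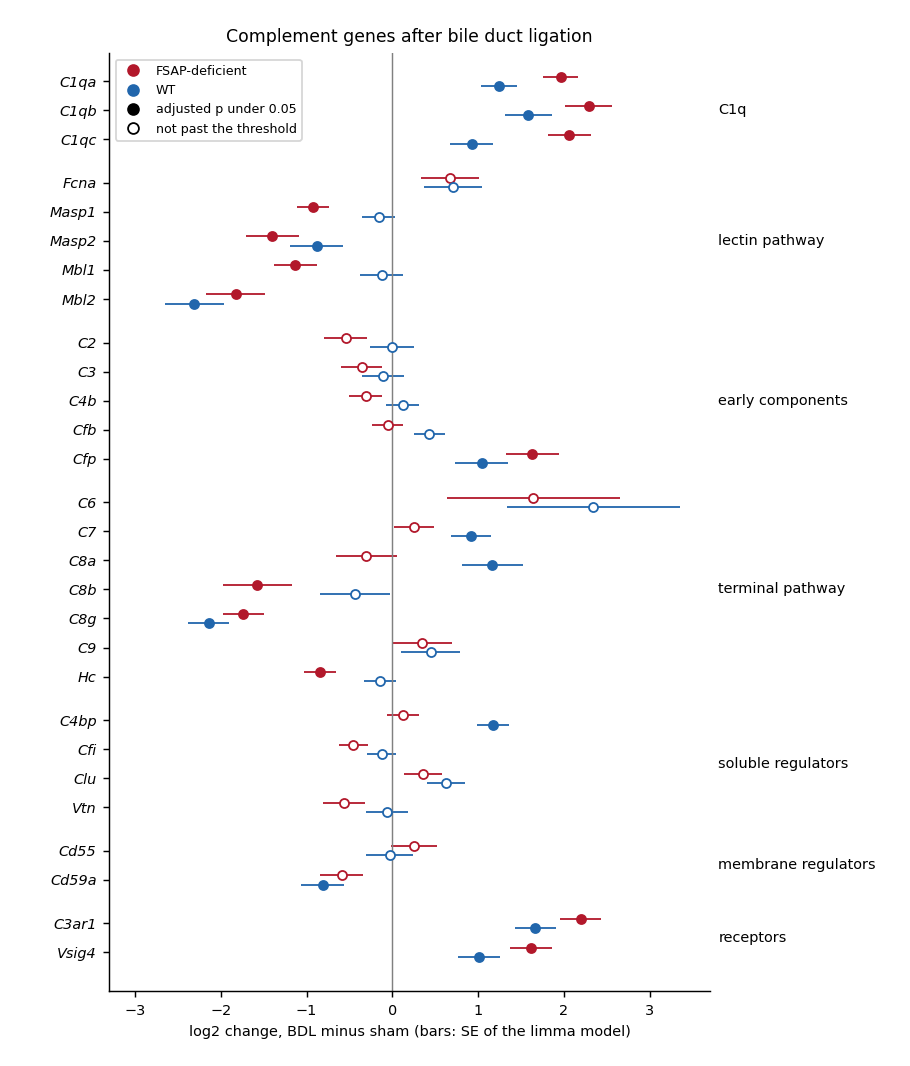
Log2 change after BDL with its standard error for the 28 tested genes, in FSAP-deficient (red, upper) and WT livers (blue, lower), ordered by role, with filled points for adjusted p under 0.05. C1q chains, Cfp, C3ar1 and Vsig4 lay to the right in both genotypes and Mbl2, Masp2 and C8g to the left, while C4bp (0.12 and 1.17) and C8a (-0.30 and 1.17) were called in WT livers and not in FSAP-deficient ones.

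FSAP-deficient and WT livers were then compared directly, and no complement gene passed. After BDL 0 of 28 were called by limma, beside 0.215% of all genes tested (0.123% higher and 0.0922% lower), with 6 at an unadjusted p under 0.05, as had 2520 of all 19528 genes. These 6 were C1qc (0.59, 95% interval 0.03 to 1.15) and C3ar1 (0.71, 0.19 to 1.24) on the higher side, and C4bp (-0.84, -1.25 to -0.43), Mbl1 (-0.80, -1.35 to -0.25), Masp1 (-0.77, -1.19 to -0.36) and Cfb (-0.46, -0.86 to -0.06) on the lower side. Their adjusted p ran from 0.1067 for C4bp to 0.3619 for C1qc.

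After sham surgery 0 of 28 were called, beside 0.0154% of all genes tested (0.00512% higher and 0.0102% lower), with 2 at an unadjusted p under 0.05, as had 1538 of all 19528 genes. These were C8a (1.20, 95% interval 0.41 to 1.99, limma adjusted p = 0.3259) and C8b (1.23, 0.34 to 2.13, adjusted p = 0.4078), both high on FSAP-deficient sham replicate 1. In the test of whether the change after BDL differed between genotypes 0 of 28 were called, beside 0.0102% of all genes. An unadjusted p under 0.05 was reached by 2678 of all 19528 genes and by 7 of the 28: C1qa (0.72), C1qc (1.14), Mbl1 (-1.01), Masp1 (-0.77), Hc (-0.70), C8a (-1.47) and C4bp (-1.05). The largest of these, for C8a, had an interval of -2.58 to -0.36 and an adjusted p of 0.2463. None of the 28 genes was called in these 3 comparisons under any alternative run. The intervals leave room for sizeable differences, and the genotypes were not shown to be alike.

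The wider complement system was covered by 37 further genes, of which 34 were on the array and 30 were tested. In FSAP-deficient livers 4 rose and 7 fell, with a median of -0.22 over those on the array, and in WT livers 6 rose and 4 fell, with a median of 0.05. Over all genes tested 39.1% were called in FSAP-deficient and 32.9% in WT livers, so these counts were near the background. Cd93, a surface receptor once described as a C1q receptor, changed by 2.62 and 2.30 (limma adjusted p = 0.000625 and 0.00165), in FSAP-deficient and WT livers in that order. Itgb2, the shared beta chain of complement receptors 3 and 4, changed by 2.29 and 1.42 (adjusted p = 0.000111 and 0.00218). Itgax, the alpha chain of complement receptor 4, was at 0.24, -0.86 and -0.39 in FSAP-deficient BDL livers, against -4.40, -4.15 and -4.86 in FSAP-deficient sham livers. In WT livers Itgax was at -2.57, -2.20 and -1.78 after BDL, against -3.54, -2.82 and -3.45 after sham. It rose by 4.13 (SE 0.32, adjusted p = 1.6e-05) in FSAP-deficient and by 1.08 (SE 0.32, adjusted p = 0.0251) in WT livers, and the difference between these rises, 3.05 (SE 0.46), did not pass (adjusted p = 0.0936). Cd5l, a macrophage protein of plasma, rose by 2.01 and 1.17 (adjusted p = 0.000252 and 0.00651).

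Genes that fell in this wider list included soluble components and a membrane regulator. C1rl, a protease related to C1r, fell by 1.66 in FSAP-deficient and by 0.94 in WT livers (limma adjusted p = 1.7e-05 and 0.000416). In FSAP-deficient livers Cpn2, a subunit of the carboxypeptidase that inactivates anaphylatoxins, fell by 0.97 (adjusted p = 0.00135), C-reactive protein (Crp) by 0.83 (adjusted p = 0.0144) and C1ra, a protease of the C1 complex, by 0.55 (adjusted p = 0.0258). These 3 were at -0.35, -0.31 and 0.13 in WT livers, where they did not pass. Cd59b, a paralog of Cd59a, was at -1.19 (adjusted p = 0.0596) in FSAP-deficient livers and fell by 1.99 in WT livers (adjusted p = 0.00691).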

How the data were processed

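Liver RNA of 12 mice was labelled with Cy3 and hybridised to 1 array each. Per the file headers the deposited files are Agilent Feature Extraction 10.5.1.1 output, and the intensity used, the processed signal, is background-subtracted by that software. The deposited series matrix of the authors holds log2 values and served as an alternative. The members and all gene lists were chosen with earlier results of these data known. Spots of a probe were averaged without outlier flags, log2 signals were set to the array's 75th percentile, and the brightest probe stood for a gene. FSAP-deficient sham replicate 1 has no gene names and was joined by probe. The 19528 of 31870 genes measured above background on 3 or more arrays were fitted in limma 3.58.1 (R 4.3.3) as 4 group means over all 12 arrays, with Benjamini-Hochberg adjustment at 0.05. The 8 residual and 2.69 prior degrees of freedom, and the number of arrays, limit the precision. All 31 members are named. Of the wider list at most 12 genes past the threshold are named, by adjusted p. Some of these are not reported here. Replicate numbers did not pair samples: same-numbered deviations correlated at -0.20 to 0.19. The procedure was tested on simulated data. Mice within a group are separate animals per the labels.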

Additional observations from a re-analysis of the deposited data

How the results depend on the processing

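Calls of complement genes were recomputed under every alternative run. Without single arrays the number called was 13 to 17 in FSAP-deficient livers and 8 to 14 in WT livers, with 8 without WT sham replicate 1, WT sham replicate 2 or WT BDL replicate 1. Of the 13 called, 10 held under every alternative in FSAP-deficient livers and 6 in WT livers (C1qa, C1qb, C3ar1, C4bp, C8g and Mbl2). With the replicate number as a block 14 and 13 genes were called, with the 13 calls of each genotype among them, so the block ended no call. The median change of the 18 hepatocyte-made genes in FSAP-deficient livers, -0.50, was -0.70 with median scaling, 0.027 with quantile normalization and 0.028 in the authors' matrix, and -0.58 to -0.43 without single arrays. In WT livers, -0.08, it was 0.22 with quantile normalization, 0.22 in the authors' matrix, 0.41 with slide as a block, and -0.21 to 0.13 without single arrays. The median of the 7 tested macrophage-made genes, 1.96 in FSAP-deficient livers, was 1.69 with normexp, 1.76 with median scaling, 1.70 without the arrays with Y-linked signal, and 1.75 to 2.17 without single arrays. In WT livers, 1.04, it was 1.23 with quantile normalization, 1.22 in the authors' matrix, 1.40 with slide as a block, and 0.88 to 1.23 without single arrays. Cfb in FSAP-deficient livers changed sign, at 0.49 with quantile normalization and 0.49 in the authors' matrix. A sign change was counted where the value was past the threshold in at least 1 of both settings, and the cause of these shifts was not tested. Over all genes, slide as a block called 4149 against 7629 in FSAP-deficient and 3285 against 6417 in WT livers. The comparison of genotypes after BDL ranged from 2 to 139 calls against 42, after sham from 1 to 3 against 3, and the test of unequal changes from 0 to 282 against 2. Probes near background, such as C7, are limited by their signal.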
